A study of Mus musculus with 36 samples.

Results

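Macrophages and CD8+ T cells taken from the same kind of tumour were compared transcript by transcript: tumour-associated macrophages (TAMs) against tumour-infiltrating CD8+ T cells (CD8 cells) of wild-type (WT) mice. The questions are which genes and programmes define each cell type, which the cell types share, and which transcripts are most abundant in each. The comparison uses 12 of the 36 samples of the series, namely the 6 TAM and the 6 CD8 libraries whose labels give the genotype WT. Each library was made from 100 cells sorted from an MC38 tumour, a mouse colon adenocarcinoma grown in the skin for 7 days, with TAMs taken as CD45+CD11b+ cells with high F4/80 and T cells by CD45, TCRbeta and CD8. The WT mice of both groups were C57BL/6J or C57BL/6N animals aged 2 to 5 months, and no treatment is given in the labels, whereas the methods describe a placebo pellet placed the day before the tumour cells. Molecules were barcoded at reverse transcription, so that distinct molecules were counted and not their amplified copies.

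Macrophages engulf and digest dead cells and debris, present peptides on MHC class II and secrete factors that recruit other leukocytes and remodel tissue. CD8 cells read peptides on MHC class I through the T cell receptor and kill with granules of granzymes and perforin. Both descend from blood-forming stem cells and both respond to interferons.

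The levels of 6 marker genes fitted the labels. *Adgre1* and *Cd8a* encode proteins used in the sort, and *Cd3e* a chain of the receptor used there. For these genes the separation is no independent check of identity. *Csf1r*, the receptor for the macrophage growth factor CSF1, had a level of 697 to 882 CPM (counts scaled to a common library total) in TAM libraries (median 827) and 0 to 155 in CD8 libraries (median 0), a log2 fold change of 4.54 (TAM over CD8; adjusted p = 1.77e-15, and 7.20 without CD8 replicate 5). *Adgre1* encodes F4/80 itself and had 187 to 383 CPM in TAMs (median 290) and no molecule in any CD8 library, at least 25.2-fold higher in TAMs (adjusted p = 3.58e-12). *C1qa*, a chain of the complement starter C1q, had 1486 to 2195 CPM in TAMs (median 1845) against 0 to 58 in CD8 cells (median 0; log2 fold change 6.83, adjusted p = 8.93e-24, and 8.36 without CD8 replicate 5). All 3 macrophage genes separated the groups without overlap.

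The T cell markers ran the other way with equal clarity. *Cd3e*, a signalling chain of the T cell receptor, had 135 to 373 CPM in CD8 cells (median 238) and 3 molecules over all TAM libraries (0 to 4.26 CPM, median 1.64), a ratio of 112 with an exact 95% counting interval of 36.4 to 557 (adjusted p = 4.03e-16). Such an exact interval, here and below, pools the molecules of a group. It covers counting error alone and leaves out the spread between libraries. *Cd8a*, the coreceptor used for sorting, had 406 to 970 CPM in CD8 cells (median 745) and 1 molecule in TAMs, in replicate 6 (3.96 CPM, 0 in the others), a ratio of 1000 (interval 177 to 39713; log2 fold change -8.82, adjusted p = 2.04e-24, and -9.55 without TAM replicate 6). *Gzmb*, the killing protease granzyme B, had 1266 to 3017 CPM in CD8 cells (median 2366) and 0 to 19.7 in TAMs (median 1.98), with a log2 fold change of -8.27 (adjusted p = 1.14e-29), and -9.07 without TAM replicate 5. None of these genes overlapped between the groups.

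**Figure D1:**
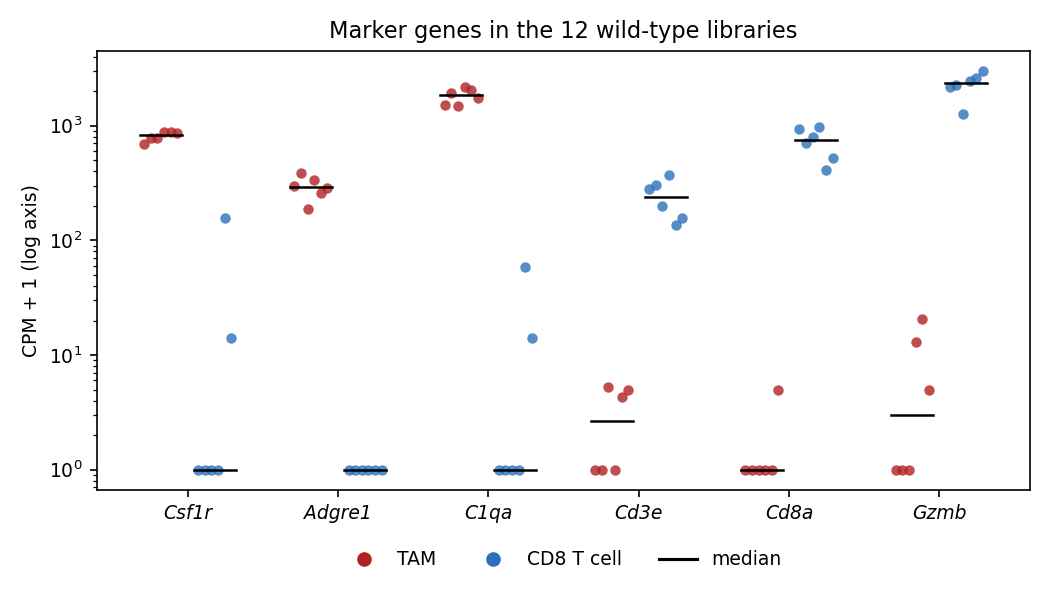
CPM plus 1 of the 6 marker genes in the 12 libraries, on a log axis. Each dot is a library and the black line is the median of a group.

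Some libraries stood apart before any result was drawn. CD8 replicate 5 held 2996 CPM of summed macrophage markers, 13.6% of the TAM mean and from 19 genes, where the other CD8 libraries held 186 to 923. The same library had 155 CPM of *Csf1r* (0 to 13 in the others), 58 CPM of *C1qa* (0 to 13) and 4136 CPM of MHC class II genes (205 to 1266). TAM replicate 6 had 6470 CPM of fibroblast markers such as *Col1a1* (158 to 1362 in the other TAM libraries). TAM replicate 1 had 251 CPM of endothelial markers (11.9 to 16.4), and TAM replicate 5 had 194 CPM of neutrophil markers (27.3 to 83.1). CD8 replicate 6 had 247 CPM of neutrophil markers (0 to 19.3), and CD8 replicate 2 had 742 CPM of haemoglobin and other erythroid genes (0 in the others). RNA of a few other cells in a sort of 100 and expression by the sorted cells themselves cannot be told apart in these data. All 12 libraries were kept, and values without CD8 replicate 5 are given beside many of the results.

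Macrophage marker RNA was strong in every TAM library and T cell marker RNA in every CD8 library. Summed macrophage markers were 19113 to 24962 CPM in TAMs (median 22460) and 186 to 2996 in CD8 cells (median 521), and summed CD8 T cell markers were 7596 to 12586 CPM in CD8 cells (median 9023) and 4.56 to 59.9 in TAMs (median 45.8). All 22 macrophage markers were higher in TAMs (median log2 fold change 4.68, 4.42 with *Adgre1*, *Mrc1* and *Mertk*, absent from CD8 cells, at their bounds, and 6.10 without CD8 replicate 5), and 21 met the stricter rule for defining genes. The lysosomal tetraspanin *Cd63* overlapped (log2 fold change 1.68, 2.65 without CD8 replicate 6). All 19 CD8 T cell markers named in the table were higher in CD8 cells (median -6.83, or -6.82 with bounds), 17 of them without overlap, which leaves *Prf1* and *Ubash3a*. The constant regions of the T cell receptor chains have no entry of their own in the table.

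**Figure D2:**
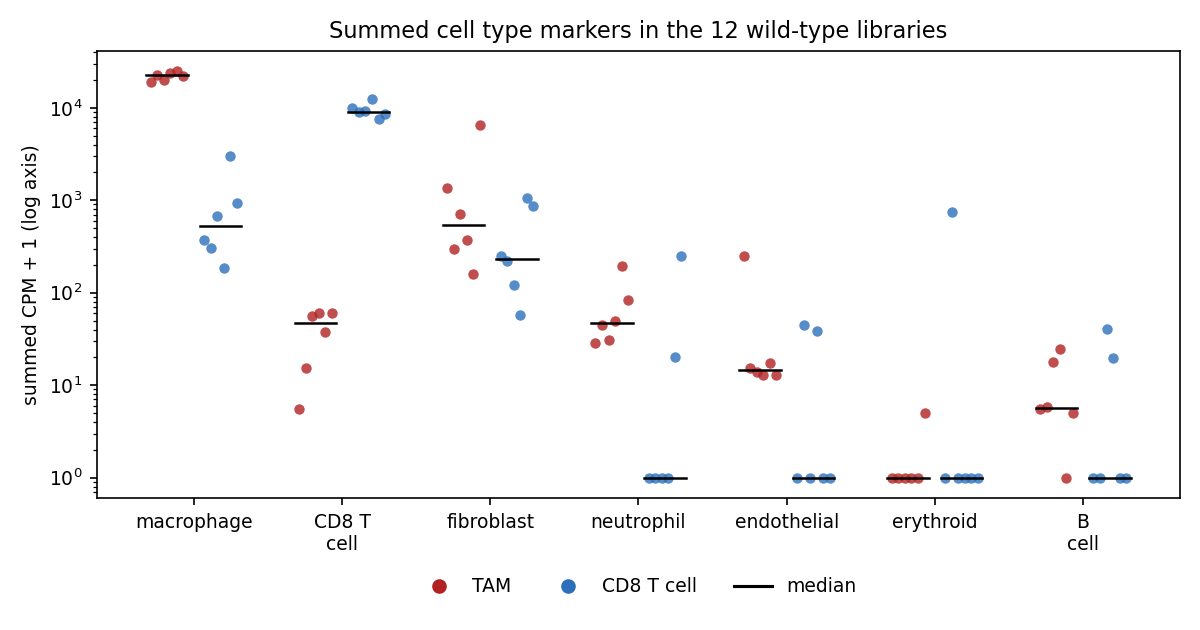
Summed CPM plus 1 of marker lists for 7 cell types in each of the 12 libraries, on a log axis. CD8 replicate 5 carries the most macrophage marker RNA among CD8 libraries and TAM replicate 6 the most fibroblast marker RNA among TAM libraries.

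Markers of other leukocytes were mixed, and many had few molecules. Of 8 monocyte markers 3 were higher in TAMs (*Ccr2*, *Fn1* and *Chil3*, the last with a log2 fold change of 3.54 without CD8 replicate 5) and 2 in CD8 cells, among them *Ly6c2*, which activated and memory T cells also carry (median log2 fold change 0.23). Of the 10 dendritic cell markers 3 were tested, with the integrin *Itgax* higher in TAMs and *Ccr7* in CD8 cells (median -0.30). Of 9 neutrophil markers 3 were tested and 1, *Csf3r*, was higher in TAMs (median 0.13) and fell below the filter without TAM replicate 6. *S100a8* was called higher in CD8 cells without TAM replicate 5 (log2 fold change -3.64, adjusted p = 0.0012) or CD8 replicate 5 (-2.16, adjusted p = 0.0462), but all 12 of its molecules in CD8 cells were in replicate 6, without which it fell below the filter. Only *Kit* was tested among mast cell, basophil and eosinophil markers; it had 1 molecule in TAMs and a ratio of 39.1 in favour of CD8 cells (exact interval 5.02 to 1762; adjusted p = 0.00108, with the gene below the filter without CD8 replicate 3). None of 9 B cell markers reached the filter. Among CD4 and regulatory T cell markers, *Ctla4* and *Il2ra* were higher in CD8 cells and *Zbtb7b* in TAMs (median -3.05; log2 fold change of *Zbtb7b* 1.36, adjusted p = 0.107, without CD8 replicate 6), while *Cd4* itself had 2 molecules in TAMs and 0 in CD8 cells. Of the NK cell list, *Fcer1g* and *Tyrobp*, which macrophages share with NK cells, were higher in TAMs (*Tyrobp* with 4.51 without CD8 replicate 5) and *Eomes* in CD8 cells (median 3.90); *Ncr1*, specific to NK cells, had 0 molecules.

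Fibroblast marker RNA was found in all 12 libraries and most in TAM replicate 6, and erythroid RNA came almost wholly from CD8 replicate 2. Of 7 fibroblast markers tested, *Col1a1* (adjusted p = 0.0287) and *Sparc* (adjusted p = 0.0265) were higher in TAMs, with a list median of 1.69 (1.14 with bounds). Neither call held without TAM replicate 6, where *Col1a1* fell below the filter and *Sparc* had an adjusted p of 0.0979, nor without any of 5 other libraries for each gene (without CD8 replicate 1, adjusted p = 0.0648 and 0.0747). Without CD8 replicate 5 both were called (adjusted p = 0.033 and 0.00638), *Sparc* with a log2 fold change of 2.43. *Col1a2* was not called, but turned with TAM replicate 6: it was higher in TAMs without any of the other 5 TAM libraries (3.34, adjusted p = 0.00985, without replicate 5) and higher in CD8 cells without replicate 6 (-2.21, adjusted p = 0.0368). Thinned libraries gave 4 fibroblast genes higher in TAMs. The epithelial and endothelial lists had 1 tested gene each and 0 calls in the edgeR test. All 3 erythroid genes tested were called higher in CD8 cells (median -4.58, or -3.70 with bounds) from replicate 2 alone, and 0 of them without it. All 12 libraries carried *Ddx3y* of the Y chromosome and none carried *Xist*, so the mice look male. *Ddx3y* was level between groups (log2 fold change -0.08), and *Kdm5d*, also on the Y, was nominally higher in CD8 cells among 4 sex-linked genes tested (log2 fold change -2.73, adjusted p = 0.0318; list median -0.38). That call was lost under TMM scaling and without any of 6 libraries, CD8 replicate 5 among them (-2.50, adjusted p = 0.108).

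TAM libraries held far more RNA molecules than CD8 libraries from the same number of cells. They ranged from 206394 to 304100 molecules (median 242756; replicates 1 to 6: 219538, 206394, 234886, 250626, 304100 and 252722), against 22896 to 76898 in CD8 libraries (median 42066; 32394, 22896, 25283, 53632, 51737 and 76898). The ratio of geometric means was 6.09 (exact permutation p = 0.00216, adjusted p = 0.00649), and the lowest TAM library lay above the highest CD8 library. In a bulk library of a fixed number of sorted cells, fewer intact cells and less RNA per cell cannot be told apart. The libraries were sequenced as an indexed pool, and unequal capture or read number cannot be told apart from these either. A single molecule stands for 3.29 to 4.85 CPM in TAMs and 13 to 43.7 CPM in CD8 cells, so weak genes are read much less well in CD8 cells.

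Gene number and concentration differed less than depth. As deposited, 10151 to 10895 genes were detected in TAM libraries (median 10531.5) and 5010 to 8475 in CD8 libraries (median 6339.5). Thinned to 22896 molecules each, TAM libraries showed 5217 to 5520 genes (median 5308) and CD8 libraries 4866 to 5397 (median 5049). These overlapping ranges differed by 231 genes on average (exact permutation p = 0.0498, adjusted p = 0.0498). That call was lost in 9 of 12 runs without a library, with an adjusted p up to 0.102 without CD8 replicate 1 or 4. Counting only genes with at least 2 molecules, the difference was 156 genes (exact permutation, adjusted p = 0.0173). The 50 most abundant genes of each library took 22.4 to 26.5% of the molecules in TAMs (median 24.8) and 26.3 to 34.3% in CD8 cells (median 28.8), ranges that just overlap, with a difference of -4.77 percentage points (exact permutation p = 0.00433, adjusted p = 0.00649). CD8 libraries thus gave a larger share to their top 50 genes, whereas for the top 20 the difference of -2.21 points was not called (exact permutation, adjusted p = 0.0844).

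Most of the genes tested were not called in either direction. Of 8174 genes tested, 1042 were higher in TAMs (12.7%) and 831 in CD8 cells (10.2%) at an adjusted p below 0.05. The split depends on scaling and on the test. It was 1449 and 561 with TMM factors and 1285 and 661 with DESeq2 size factors. For genes with molecules in both groups these shift the log2 fold change by about 0.298 and 0.188. With limma voom it turned round, to 865 and 1220, so which cell type has more called genes is not settled here. A gene without a call is not thereby equal: 5217 genes were neither called nor shared. The p-values measure spread between these samples, and the median log2 fold change over all tested genes was 0.00. The median was 2.40 for genes higher in TAMs and -1.69 for genes higher in CD8 cells.

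Defining genes were counted by a stricter rule. With at least a 4-fold difference and no overlap between any libraries, 563 genes defined TAMs (6.89%; median log2 fold change 3.62) and 173 defined CD8 cells (2.12%; median -4.34). The gap depends on depth and method: it was 173 and 105 in libraries thinned to equal depth and 357 and 180 with limma voom. Leaving out CD8 replicate 5 gave 658 and 194, and kept 544 and 170 of the original genes. TAM-defining genes made up 14.5% of the molecules in TAMs and 1.06% in CD8 cells, and CD8-defining genes 6.11% in CD8 cells and 0.388% in TAMs. Of the TAM-defining genes 164 had no molecule in any CD8 library, and 15 of the CD8-defining genes had none in TAMs; a count of 0 says less in the shallower CD8 libraries.

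**Figure D3:**
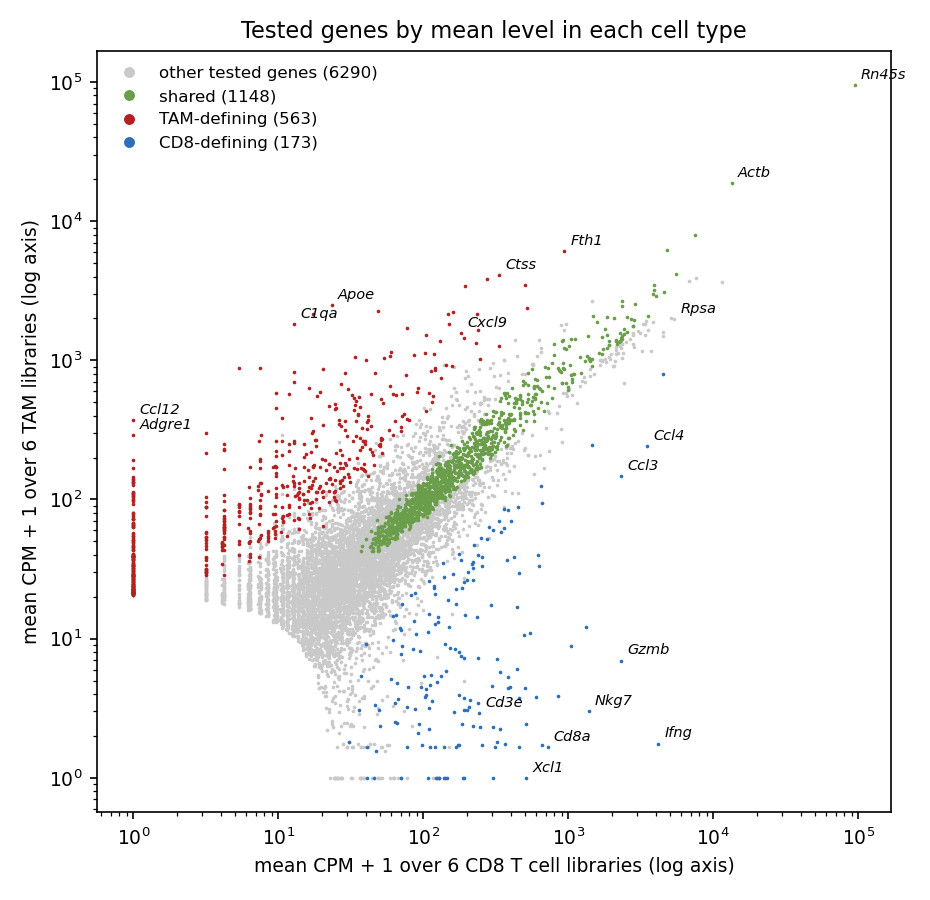
Mean CPM plus 1 of each tested gene in CD8 and TAM libraries, on log axes. Shared genes, TAM-defining genes and CD8-defining genes are coloured.

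Some abundant TAM genes had no molecule in CD8 cells, so that only a lower bound of their difference can be given. *Ccl12*, a monocyte-attracting chemokine, had 298 to 489 CPM in TAMs (median 335) and no molecule in CD8 cells, at least 32.1-fold higher (adjusted p = 9.42e-14). Genes likewise absent from CD8 cells were *C5ar1*, the receptor for the complement fragment C5a (at least 16.9-fold), the surface receptor *Cd300c2* (at least 14.7-fold), the matrix protease urokinase *Plau* (at least 12.5-fold), and the nucleotide receptor *P2ry6* (at least 12.3-fold). So were the secreted ribonuclease *Rnase4* and the scavenger receptor *Stab1* (each at least 11.6-fold), the protease inhibitor *Spint1* (at least 11.3-fold), the Fc receptor-like *Fcrls* and the mannose receptor *Mrc1* (each at least 11.2-fold), the platelet factor *Pf4* (at least 9.91-fold), and the adaptors *Sash1* and *Scimp* (each at least 9.73-fold). These bounds are set by CD8 depth and not by the true ratio. Larger differences were measured where CD8 cells held a few molecules, as for *C1qc*, with 1754 to 2440 CPM in TAMs (median 2194) against 0 to 58 in CD8 cells (median 0; log2 fold change 7.07, adjusted p = 1.75e-24, and 8.60 without CD8 replicate 5).

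Complement and Fc receptor genes were nearly all higher in TAMs. Of 12 complement genes tested 11 were higher in TAMs (median log2 fold change 5.16, 4.03 with bounds, 5.84 without CD8 replicate 5), and their summed RNA was 6568 to 8977 CPM in TAMs (median 7910) against 74.6 to 503 in CD8 cells (median 241). *C1qb* had 1881 to 2586 CPM in TAMs (median 2290) and 0 to 96.6 in CD8 cells (median 41.6; log2 fold change 5.71, adjusted p = 5.76e-24). *C3ar1*, the C3a receptor, had a ratio of 51.6 (exact interval 17.6 to 250) and *Cfp*, which stabilises the complement convertase, a ratio of 60.3 (exact interval 10.8 to 2390). Only the regulator *Cr1l* was not called (log2 fold change -0.75, adjusted p = 0.101; -0.94, adjusted p = 0.0414, without CD8 replicate 4). The CD8 molecule of *Cfp* was in replicate 5, as were 2 of the 3 of *C3ar1*. All 6 IgG Fc receptor genes were higher in TAMs (median 4.54, 4.18 with bounds, 5.26 without CD8 replicate 5). *Fcer1g*, their common signalling chain, had 1469 to 1986 CPM in TAMs (median 1702) and 0 to 271 in CD8 cells (median 54.4; log2 fold change 4.28, adjusted p = 2.03e-18, 5.30 without CD8 replicate 5), and *Fcgr1*, the high-affinity receptor, 400 to 686 (median 561) against 0 to 39.6 (median 13; log2 fold change 4.81, adjusted p = 2.63e-15). In both genes every TAM library lay above every CD8 library.

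Antigen presentation on MHC class II was a TAM programme in every library. All 9 tested genes of 11 on this list were higher in TAMs (median log2 fold change 3.59, 5.08 without CD8 replicate 5), with summed RNA of 10481 to 20914 CPM in TAMs (median 14847) and 205 to 4136 in CD8 cells (median 543). *Cd74*, the chaperone of class II molecules, had 2583 to 5564 CPM in TAMs (median 3780) and 0 to 1063 in CD8 cells (median 109; log2 fold change 3.74, adjusted p = 4.25e-14, 5.26 without CD8 replicate 5). *H2-Aa*, a class II chain, had 1248 to 3226 (median 2106) against 0 to 619 (median 69.7; log2 fold change 3.79, adjusted p = 7.77e-14, 5.64 without CD8 replicate 5). The highest CD8 value of both genes is that of replicate 5, and no value overlapped. *Ciita*, which switches the class II genes on, had a ratio of 12.4 (exact interval 2.14 to 495), its single CD8 molecule again in replicate 5.

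Lysosome genes were abundant in TAMs. Of 23 lysosome genes tested 20 were higher in TAMs and 14 defined them (median log2 fold change 2.57, 2.70 without CD8 replicate 5), with 13588 to 17974 CPM in TAMs (median 15451) and 1235 to 3402 in CD8 cells (median 1639). The cysteine protease *Ctss*, counted with the class II list because it trims class II ligands, had 3366 to 5199 CPM in TAMs (median 4073) and 175 to 1005 in CD8 cells (median 191; log2 fold change 3.53, adjusted p = 1.35e-18, 4.38 without CD8 replicate 5). *Ctsc*, which activates other granule proteases, had 2779 to 4272 (median 3306) against 43.7 to 696 (median 106; adjusted p = 7.7e-19, and a log2 fold change of 5.12 without CD8 replicate 5). Progranulin, *Grn*, had 897 to 1227 (median 1050) against 0 to 58 (median 41.3; log2 fold change 4.77, adjusted p = 1.25e-19), and the lipid-degrading cofactor *Psap* 1849 to 2759 (median 2064) against 92.6 to 464 (median 213; log2 fold change 3.22, adjusted p = 2.66e-18). These 4 genes showed no overlap, whereas cathepsin D, *Ctsd*, differed little (log2 fold change 0.95, adjusted p = 0.000936). The protease *Lgmn* had a ratio of 116 (exact interval 32 to 958; adjusted p = 9.63e-20), with both CD8 molecules in replicate 6.

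Lipid handling and scavenging also belonged to TAMs. Of 12 lipid-handling genes 10 were higher in TAMs (median log2 fold change 3.45, 2.61 with bounds, 4.12 without CD8 replicate 5). The lipid carrier *Apoe* had 1809 to 3682 CPM in TAMs (median 2275) and 0 to 77.3 in CD8 cells (median 13; log2 fold change 6.50, adjusted p = 5.89e-24, 7.37 without CD8 replicate 5), without overlap. The lipid sensor *Trem2* had 145 to 233 CPM in TAMs (median 185) and a ratio of 24.9 (exact interval 6.82 to 206; adjusted p = 4.65e-09; both CD8 molecules in replicate 5), the fatty acid receptor *Cd36* was at least 5.55-fold higher, and the matrix protein *Spp1* had a log2 fold change of 2.75 (adjusted p = 1.31e-07, 3.69 without CD8 replicate 6). Of 13 scavenger receptor and lectin genes 12 were higher in TAMs (median 4.75, 3.27 with bounds, 5.71 without CD8 replicate 5). The scavenger receptor *Msr1* had 446 to 734 CPM in TAMs (median 652) against 0 to 39.6 in CD8 cells (median 6.5; log2 fold change 5.29, adjusted p = 1.36e-16, 5.93 without CD8 replicate 5), and the inhibitory lectin *Clec12a* had a ratio of 77.5 (exact interval 13.8 to 3069; 1 CD8 molecule, in replicate 3). *Mertk*, which takes up dying cells, was at least 4.42-fold higher, and its relative *Axl* had a log2 fold change of 2.31 (3.46 without CD8 replicate 5).

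Microbial sensing and the myeloid control genes followed the same direction. Of 14 pattern recognition genes 11 were higher in TAMs (median log2 fold change 2.62, 2.27 with bounds, 2.75 without CD8 replicate 5). The endotoxin coreceptor *Cd14* had 460 to 921 CPM in TAMs (median 676) and 0 to 232 in CD8 cells (median 19.8; log2 fold change 3.19, 4.30 without CD8 replicate 5), the lipopeptide receptor *Tlr2* had a ratio of 15.1 (exact interval 5.11 to 73.7), the inflammasome sensor *Nlrp3* a ratio of 11.6 (exact interval 3.16 to 97.1; 1 of 2 CD8 molecules in replicate 5) and the DNA-sensing adaptor STING, *Tmem173*, a log2 fold change of 2.17 (adjusted p = 1.16e-05). Of 14 myeloid transcription factors 12 were higher in TAMs (median 2.71, 1.83 with bounds, 3.44 without CD8 replicate 5). PU.1, encoded by *Spi1*, had a ratio of 23 (exact interval 7.82 to 112; all 3 CD8 molecules in replicate 5), and the inflammatory factor *Cebpb* was higher in TAMs too (adjusted p = 3.55e-10; log2 fold change 4.04 without CD8 replicate 6). *Irf8*, a factor of monocyte and T cell lineages, was among the 12 and also shared (log2 fold change 0.57, adjusted p = 0.0184; 0.51, adjusted p = 0.0588, without TAM replicate 2), and the hypoxia factor *Hif1a* was higher in CD8 cells (log2 fold change -0.73, adjusted p = 0.00692), a call lost under TMM, under DESeq2 size factors and without CD8 replicate 4 (-0.57, adjusted p = 0.0658).

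Oxidase, iron and matrix genes completed the TAM side. Of 7 NADPH oxidase genes 5 were higher in TAMs (median log2 fold change 1.77, 1.96 without CD8 replicate 5), led by the catalytic subunit *Cybb* with 788 to 1119 CPM (median 1034) against 0 to 193 in CD8 cells (median 6.5; log2 fold change 4.43, adjusted p = 7.11e-16, 6.60 without CD8 replicate 5). *Ncf4*, another of the 5, lost its call without any of several libraries, such as CD8 replicate 6 (0.69, adjusted p = 0.232). Without CD8 replicate 5 it reached 1.74 (adjusted p = 0.00253). *Rac2*, a GTPase of both lineages, was higher in CD8 cells (log2 fold change -1.74, adjusted p = 9.98e-11). Iron storage stood high in TAMs, with 5 of 6 iron genes higher (median 2.70, 3.43 without CD8 replicate 5). Ferritin heavy chain, *Fth1*, had 4892 to 7840 CPM (median 5708) against 309 to 2165 (median 798; log2 fold change 2.64, adjusted p = 1.75e-16) and light chain, *Ftl1*, 2999 to 4216 (median 3346) against 393 to 650 (median 475; log2 fold change 2.74, adjusted p = 3.36e-21). A single gene of iron uptake, the transferrin receptor *Tfrc*, pointed the other way. It had 24.2 to 95.7 CPM in TAMs (median 38.8) and 87.4 to 416 in CD8 cells (median 209), with a log2 fold change of -2.45 (adjusted p = 1.78e-08).

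*Nos2* leaned weakly to TAMs, and most matrix genes were higher there. The nitric oxide synthase *Nos2*, which uses arginine, had 43.6 to 214 CPM in TAMs (median 101) and 0 to 155 in CD8 cells (median 0; log2 fold change 1.44, adjusted p = 0.0375, 2.68 without CD8 replicate 5), with overlap and with a call lost when any of 7 libraries was left out (1.12, adjusted p = 0.144, without CD8 replicate 4). Of 6 arginine genes 3 were higher in TAMs and 1, the polyamine enzyme *Odc1*, in CD8 cells (log2 fold change -1.39, adjusted p = 1.44e-06; list median 1.57, 2.50 without CD8 replicate 5). Of 12 matrix protease and angiogenic genes 11 were higher in TAMs (median 2.73, 2.35 with bounds, 3.49 without CD8 replicate 5). The calls of *Mmp12*, *Mmp19* and *Timp1* were each lost without any of 5 libraries, for *Mmp12* and *Mmp19* most of all without CD8 replicate 6 (adjusted p = 0.117 and 0.127) and for *Timp1* without TAM replicate 6 (adjusted p = 0.0977). Without CD8 replicate 5 all 3 were stronger, at 6.95 (adjusted p = 0.000113), 3.18 (adjusted p = 0.00807) and 5.85 (adjusted p = 0.0179). Fibronectin, *Fn1*, had 967 to 1377 CPM in TAMs (median 1066) and 0 to 464 in CD8 cells (median 40.2; log2 fold change 2.93, adjusted p = 9.05e-12, 3.99 without CD8 replicate 5). The vessel growth factor *Vegfa* had a log2 fold change of 1.91 (adjusted p = 0.000297, 2.50 without CD8 replicate 6), the membrane collagenase *Mmp14* of 3.24 (adjusted p = 4.37e-11), and the matrix protein *Thbs1* was not called (1.04, adjusted p = 0.0586), but was without CD8 replicate 6 (3.23, adjusted p = 5.71e-06) or without TAM replicate 1 or 2 (1.11 and 1.14, adjusted p = 0.0304 and 0.0296).

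The large differences toward CD8 cells included *Ifng* and *Xcl1*. *Ifng*, encoding interferon gamma, had 1827 to 5775 CPM in CD8 cells (median 4620) and 1 molecule in TAMs (0 to 4.56 CPM, median 0), a ratio of 5955 (exact interval 1066 to 235422; adjusted p = 1.86e-31). The chemokine *Xcl1*, which draws cross-presenting dendritic cells, had 174 to 1080 CPM (median 498) and no molecule in TAMs, at least 238-fold higher (adjusted p = 8.67e-19). *Nkg7*, a granule membrane gene, had 792 to 2144 CPM (median 1225) against 0 to 4.26 in TAMs (median 1.98), a ratio of 661 (exact interval 224 to 3221; adjusted p = 1.12e-27). The lectin receptor *Klrc1* had 480 to 949 CPM (median 579) and a ratio of 950 (exact interval 168 to 37727), and its partner *Klrd1* a ratio of 313 (84.6 to 2615). Among the other large differences were the IL-2 receptor chain *Il2rb* (ratio 693, exact interval 122 to 27577), the coreceptor chain *Cd8b1* (log2 fold change -7.85), the actin-binding *Ablim1* (ratio 497, exact interval 87 to 19855), the chemokine *Ccl1* (at least 93.1-fold), the receptor chain *Cd247* (at least 87.5-fold) and the signalling scaffold *Lat* (ratio 441, exact interval 76.9 to 17649). The single TAM molecules of *Ifng* and *Ablim1* were in replicate 1, that of *Lat* in 2, of *Klrc1* in 3 and of *Il2rb* in 4, and without that replicate TAMs held none.

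The T cell receptor machinery was almost absent from TAMs. Of 18 receptor complex and signalling genes tested 17 were higher in CD8 cells (median log2 fold change -6.65, -6.47 with bounds), and the adaptor *Lcp2*, used by both lineages, was shared. *Thy1*, a T cell surface glycoprotein, had 792 to 1398 CPM in CD8 cells (median 1016) and 0 to 27.7 in TAMs (median 1.64; log2 fold change -6.85, adjusted p = 2.43e-24, -7.69 without TAM replicate 6). *Lck*, the kinase that starts receptor signalling, had 208 to 653 (median 383) against 0 to 12.8 (median 0; log2 fold change -6.48, -7.24 without TAM replicate 3), and the related kinase *Fyn* differed less (log2 fold change -1.76, adjusted p = 1.18e-06). *Thy1* and *Lck* did not overlap between groups.

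Killing genes were abundant in CD8 cells. Of 17 cytotoxic effector genes tested 15 were higher in CD8 cells (median log2 fold change -6.62, also with bounds). *Gzma*, granzyme A, had 174 to 615 CPM in CD8 cells (median 256) and none in TAMs, at least 151-fold higher (adjusted p = 3.65e-17), and perforin, *Prf1*, had 0 to 149 (median 64.8), at least 37.2-fold higher (adjusted p = 5.34e-08). *Serpinb9*, which shields cells from granzyme B, had 290 to 671 CPM in CD8 cells (median 441) and 14.5 to 36.2 in TAMs (median 31.8; log2 fold change -3.90, adjusted p = 1.5e-17), without overlap. *Gzmd* and *Gzme* fell below the filter without CD8 replicate 6, and granzyme genes resemble each other enough that reads may be shared among them. The exceptions have lysosomal roles in both lineages: *Lamp1* was higher in TAMs (732 to 954 CPM, median 865, against 0 to 260, median 106; log2 fold change 2.57, adjusted p = 1.08e-12), and the granule proteoglycan *Srgn* was shared (log2 fold change -0.34), though called higher in CD8 cells without TAM replicate 4 (-0.40, adjusted p = 0.0499).

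Inhibitory receptors were divided between the cell types, and costimulatory receptors were not. Of 9 inhibitory receptor genes 4 were higher in CD8 cells (*Pdcd1*, *Ctla4*, *Lag3* and *Cd160*) and 3 in TAMs (*Entpd1*, *Lilrb4a* and *Vsir*), with a median log2 fold change of 0.03. PD-1, encoded by *Pdcd1*, had 43.7 to 392 CPM in CD8 cells (median 226) and 0 to 4.26 in TAMs (median 0), a ratio of 159 (exact interval 42.1 to 1346; adjusted p = 6.79e-15). *Ctla4* had 96.6 to 316 (median 174) against 0 to 47.9 (median 2.42; log2 fold change -3.65, adjusted p = 3.57e-08, -4.60 without TAM replicate 4). *Lag3* was low in CD8 cells (0 to 87.4 CPM, median 6.5) and at least 11.2-fold higher (adjusted p = 0.00157), and fell below the filter without CD8 replicate 2 or 4. TIM-3, encoded by *Havcr2*, was shared, with 83.8 to 107 CPM in TAMs (median 91.3) and 43.7 to 131 in CD8 cells (median 85.9; log2 fold change 0.03), so its RNA did not tell T cells from macrophages. CD39, the ATP-degrading enzyme encoded by *Entpd1*, had 562 to 780 CPM in TAMs (median 662) and 61.7 to 387 in CD8 cells (median 197; log2 fold change 1.59, adjusted p = 1.74e-07), and *Vsir* lost its call without CD8 replicate 5 (0.77, adjusted p = 0.0709). Of 9 costimulatory receptor genes 8 were higher in CD8 cells (median -5.50, -5.38 with bounds) and *Slamf6* was not called (-1.33, adjusted p = 0.127) except without CD8 replicate 6 (-1.79, adjusted p = 0.0261). 4-1BB, encoded by *Tnfrsf9*, had 349 to 712 CPM in CD8 cells (median 540) and 0 to 20 in TAMs (median 8.81; log2 fold change -5.66, adjusted p = 1.72e-21). *Icos* had 232 to 830 (median 330; log2 fold change -6.07, adjusted p = 5.12e-18, -6.65 without TAM replicate 4), and *Cd27* was at least 67-fold higher (adjusted p = 1.33e-12).

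Transcription factors and memory genes of T cells were mostly higher in CD8 cells. With macrophages on the other side, a state of activation or memory of the T cells was not tested. Of 25 T cell transcription factors 18 were higher in CD8 cells and 2, *Runx1* and *Zeb2*, in TAMs (median log2 fold change -2.72; 17 and 3 under TMM). *Ets1*, a lymphoid factor, had 445 to 926 CPM in CD8 cells (median 585) and 20 to 59.2 in TAMs (median 28.5; log2 fold change -4.24, adjusted p = 2.63e-19). *Tcf7*, linked to stem-like T cells, had 39.6 to 525 (median 216) against 0 to 36.4 (median 11.7; log2 fold change -4.13, adjusted p = 1.14e-10), and the effector factor *Tbx21* had 0 to 112 (median 69.5), at least 31.7-fold higher (adjusted p = 8.42e-08). *Eomes* had a ratio of 36.3 (exact interval 8.22 to 331), and the exhaustion-linked *Tox* was at least 13-fold higher but below the filter without CD8 replicate 3, 4 or 6. *Runx3*, a CD8 lineage factor, was called only without CD8 replicate 5 (log2 fold change -0.57, adjusted p = 0.166, against -0.83, adjusted p = 0.0186). Of 13 naive and memory genes 11 were higher in CD8 cells (median -2.83; 10 under TMM). *Ccr7*, the lymph node homing receptor, had 216 to 554 CPM in CD8 cells (median 249) and a ratio of 441 (exact interval 76.9 to 17649; adjusted p = 7.4e-19; its TAM molecule in replicate 6), and the IL-7 receptor *Il7r* had a log2 fold change of -2.09 (adjusted p = 5.4e-08). *Cd44*, often read as a sign of T cell activation, was as high in TAMs (506 to 661 CPM, median 548) as in CD8 cells (393 to 831, median 607; log2 fold change -0.01).

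Chemokines were made by both cell types in different sets. Of 17 CC and CXC chemokine genes tested 12 were higher in TAMs and 4 in CD8 cells (median log2 fold change 2.81, 2.59 with bounds, 3.16 without CD8 replicate 5). The interferon-induced *Cxcl9*, which attracts activated T cells, had 1163 to 2045 CPM in TAMs (median 1539) and 37.3 to 286 in CD8 cells (median 215; log2 fold change 3.08, adjusted p = 1.43e-16). Its relative *Cxcl10* had 443 to 1216 (median 1033) against 30.9 to 445 (median 61.4), so that the highest CD8 library reached the lowest TAM library (log2 fold change 2.50, adjusted p = 2.33e-09, 3.25 without CD8 replicate 5). The monocyte attractant *Ccl2* had a log2 fold change of 2.23 (adjusted p = 1.85e-06, 4.21 without CD8 replicate 5). CD8 cells held the larger amounts of *Ccl3*, *Ccl4* and *Ccl5*, which attract monocytes and T cells. *Ccl3* had 1701 to 3674 CPM in CD8 cells (median 2010) and 78.9 to 273 in TAMs (median 129; log2 fold change -4.00, adjusted p = 1.33e-22), *Ccl4* 1847 to 4885 (median 3899) against 103 to 373 (median 255; log2 fold change -3.85, adjusted p = 5.08e-21) and *Ccl5* 889 to 2140 (median 1452) against 105 to 345 (median 285; log2 fold change -2.54, adjusted p = 1.18e-14). None of these 3 overlapped.

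Cytokine genes were split near evenly. Of 17 cytokine and growth factor genes tested 6 were higher in TAMs and 7 in CD8 cells, 7 and 5 under TMM (median log2 fold change 1.28, 1.06 with bounds, 0.98 without CD8 replicate 5), and *Tgfb1* was shared. In libraries thinned to equal depth 8 were tested, with 3 and 3 called, and the median turned to -0.95. *Il1b*, the inflammasome cytokine, had 647 to 1312 CPM in TAMs (median 870) and 0 to 638 in CD8 cells (median 19.8; log2 fold change 2.37, adjusted p = 1.55e-07, 3.74 without CD8 replicate 5), and its antagonist *Il1rn* had a log2 fold change of 3.93 (8.53 without CD8 replicate 5). In CD8 cells the T cell growth factor *Il2* was at least 27.9-fold higher (adjusted p = 6.86e-07). *Csf2*, encoding the myeloid growth factor GM-CSF, had 0 to 135 CPM there (median 73.5), at least 39.1-fold higher (adjusted p = 7.33e-09). The death ligand *Fasl* had a ratio of 218 (exact interval 36.9 to 8823; its TAM molecule in replicate 6) and lymphotoxin, *Lta*, of 89.4 (13.9 to 3748; TAM molecule in replicate 5). *Tnf* leaned to TAMs, with 17 to 108 CPM (median 43.8) and a ratio of 4.83 (exact interval 1.6 to 23.9; adjusted p = 0.0273), and *Csf1* leaned to CD8 cells (log2 fold change -1.13, adjusted p = 0.0385). Neither call held without CD8 replicate 5 (log2 fold change 1.91, adjusted p = 0.0774, and -0.86, adjusted p = 0.207), and others of the 12 libraries had the same effect. *Tnf* reached 3.33 without CD8 replicate 4.

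Receptors for these signals were divided as well. Of 9 chemokine receptor genes 5 were higher in TAMs, among them *Ccr1*, *Ccr2* and *Cx3cr1*, and 4 in CD8 cells (*Ccr7*, *Cxcr3*, *Cxcr4* and *Cxcr6*), with a median log2 fold change of 2.27. *Ccr2*, the receptor that brings monocytes into tissue, had 673 to 988 CPM in TAMs (median 839) and 0 to 290 in CD8 cells (median 82.9; log2 fold change 2.85, 3.53 without CD8 replicate 5). *Cxcr6*, which binds *Cxcl16*, had 174 to 727 CPM in CD8 cells (median 348) and 0 to 25.5 in TAMs (median 0; log2 fold change -6.28, adjusted p = 1.5e-16, -8.71 without TAM replicate 3). Of 28 cytokine receptor genes 11 were higher in TAMs and 9 in CD8 cells, 11 and 7 under TMM and 9 and 9 without CD8 replicate 5 (median 0.57), with *Il10ra* losing its call without any of 9 libraries and *Ifnar1* without any of 4 (0.90, adjusted p = 0.152, and 0.81, adjusted p = 0.231, without CD8 replicate 6). The chains of the interferon gamma receptor went opposite ways: *Ifngr1*, which binds the cytokine, had 95.7 to 152 CPM in TAMs (median 126) and 390 to 917 in CD8 cells (median 633; log2 fold change -2.29, adjusted p = 7.77e-13), and *Ifngr2*, the signalling chain, 100 to 156 (median 131) against 0 to 77.3 (median 6.5; log2 fold change 2.46, adjusted p = 5.29e-05, 3.66 without CD8 replicate 5).

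Ligands and receptors could be laid side by side in both directions. Of 34 pairs listed, 6 had the ligand higher in CD8 cells and the receptor in TAMs, among them *Ccl3* with *Ccr1*, *Csf1* with *Csf1r* and *Csf2* with *Csf2ra*. Mean levels in TAMs and CD8 cells were 147 and 2307 CPM for *Ccl3* and 412 and 34.5 for its receptor *Ccr1*. Another 7 pairs had the ligand higher in TAMs and the receptor in CD8 cells: *Cxcl9* and *Cxcl10* with *Cxcr3*, *Cxcl16* with *Cxcr6*, *Il18* with *Il18r1*, *Tnf* with *Tnfrsf1b*, *Cd274* with *Pdcd1* and *Cd86* with *Cd28*. *Cxcl16* had mean levels of 561 and 31.3 CPM and *Cxcr6* of 4.26 and 384, a near mirror image. Both partners were higher in CD8 cells in 3 pairs (*Il2* with *Il2ra*, *Ifng* with *Ifngr1*, *Pdcd1lg2* with *Pdcd1*) and in TAMs in 1 (*Ccl2* with *Ccr2*). *Il18* fell below the filter without TAM replicate 4, 5 or 6, *Ccr1* had a log2 fold change of 3.41 (5.33 without CD8 replicate 5), *Cxcl16* reached 5.77 without CD8 replicate 5 and *Csf2ra* 4.48 without CD8 replicate 1. The pairs of *Tnf* and *Csf1* rest on calls lost without any of 6 and any of 5 libraries, CD8 replicate 5 among them (*Tnf* adjusted p = 0.0774, *Csf1* adjusted p = 0.207). Binding or signalling between these cells was not tested.

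Checkpoint ligands leaned to TAMs. Of 11 checkpoint and costimulatory ligand genes 6 were higher in TAMs (*Cd274*, *Cd86*, *Cd40*, *Lgals9*, *Lgals3* and *Vsir*) and 2 in CD8 cells (*Pdcd1lg2* and *Cd48*; 1 under TMM, and *Cd48* not called without any of 10 of the 12 libraries, such as CD8 replicate 4, -0.67, adjusted p = 0.112), with a median log2 fold change of 1.14 (1.45 without CD8 replicate 5). PD-L1, encoded by *Cd274*, had 180 to 345 CPM in TAMs (median 242) and 30.9 to 193 in CD8 cells (median 106), which overlap slightly (log2 fold change 1.23, adjusted p = 0.000964). PD-L2, encoded by *Pdcd1lg2*, was higher in CD8 cells (log2 fold change -1.99, adjusted p = 0.0111), the costimulator *Cd86* in TAMs (log2 fold change 2.39, 3.17 without CD8 replicate 6), and *Cd40*, through which T cells license macrophages, was at least 5.79-fold higher in TAMs.

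**Figure D4:**
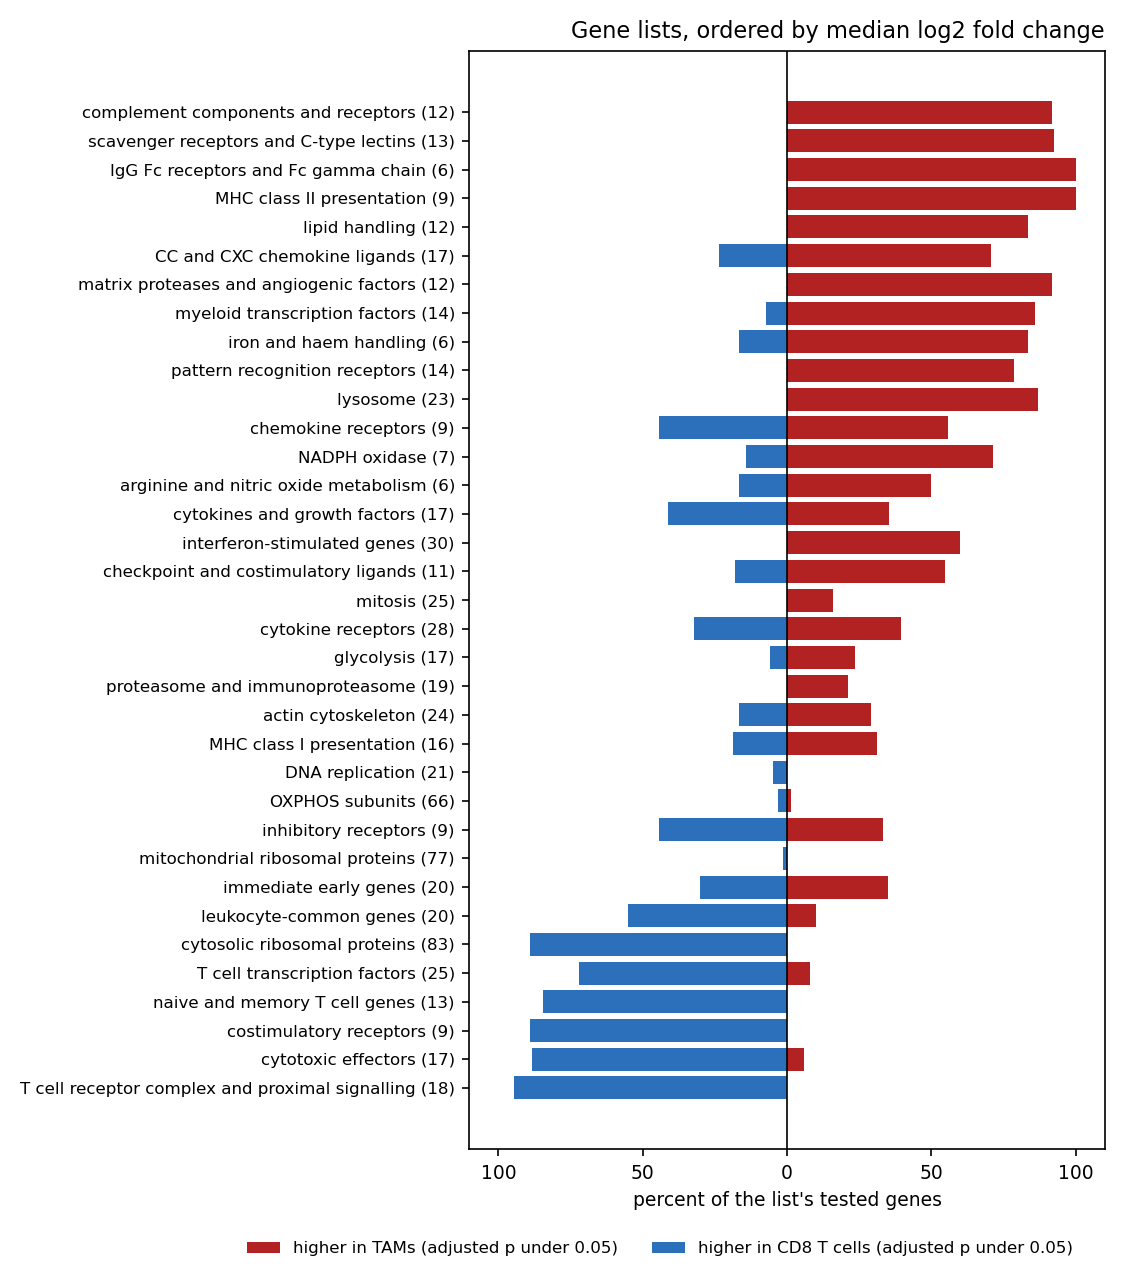
Percentage of the tested genes of each functional list that were higher in TAMs (right) or in CD8 cells (left), for lists with at least 5 tested genes, ordered by median log2 fold change. Lists near the middle, such as OXPHOS subunits, change their small counts with TMM or DESeq2 scaling. Over all tested genes 12.7% were higher in TAMs and 10.2% in CD8 cells.

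Interferon-stimulated genes were present in both cell types, and their summed RNA was higher in TAMs. Of 30 such genes 18 were higher in TAMs, 25 under TMM, 24 under DESeq2 size factors and 11 of 28 in libraries thinned to equal depth, and none in CD8 cells (median log2 fold change 1.15). The other 12 were not called in the main test. Single calls moved both ways when a library was left out. *Ifitm2* lost its call without CD8 replicate 6 (0.65, adjusted p = 0.111), and *Gbp4* gained one without CD8 replicate 4 (0.69, adjusted p = 0.0177). Their sum was 9085 to 10687 CPM in TAMs (median 10064) and 2970 to 5238 in CD8 cells (median 3544). The guanylate-binding *Gbp2* had 2082 to 2708 CPM in TAMs (median 2382) and 185 to 1160 in CD8 cells (median 421; log2 fold change 2.09, adjusted p = 1.04e-12), and the antiviral *Ifitm3* had 975 to 1473 (median 1049) against 0 to 260 (median 41.6; log2 fold change 3.10, adjusted p = 9e-14, 3.73 without CD8 replicate 6). The transcription factor *Irf1* was shared (0.44).

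Shared genes carried a large part of the RNA of both cell types. The fold change of 1148 genes (14.0%; median log2 fold change -0.03) lay within 2-fold across its whole 95% interval, 889 without CD8 replicate 5 and 247 in libraries thinned to equal depth, and 64 of them were also called higher in a cell type, so shared and called genes of a list can overlap. Shared genes made up 42.6% of the molecules in TAMs and 44% in CD8 cells. The most abundant outside the ribosomal proteins were the ribosomal precursor *Rn45s* (log2 fold change -0.00), the actins *Actb* (0.48) and *Actg1* (-0.29), the actin-binding *Tmsb4x* (0.10), *B2m* (0.38), the poly(A)-binding *Pabpc1* (-0.41), the nuclear RNA *Malat1* (-0.17), the chaperones *Hspa8* (0.20) and *Hsp90ab1* (-0.71), *Lrrc17* (-0.22), *Ptma* (0.04), *Ppia* (-0.02), H2-D1 (0.16), *Gapdh* (0.43) and *Rack1* (-0.62). *Lrrc17* ranged from 1028 to 8679 CPM within CD8 cells (median 1863) and turned toward TAMs without CD8 replicate 5 (log2 fold change 0.54, adjusted p = 0.00909), and *Actg1* was called higher in CD8 cells without it (-0.32, adjusted p = 0.0218).

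Leukocyte and MHC class I genes were mixed. Of 20 leukocyte-common genes 2 (*Itgb2* and *Ucp2*) were higher in TAMs, 11 in CD8 cells and 6 shared (median log2 fold change -0.66; 5 and 6 called under TMM, 3 and 10 under DESeq2 size factors). CD45, encoded by *Ptprc*, had 427 to 546 CPM in TAMs (median 499) and 689 to 1661 in CD8 cells (median 1097), without overlap (log2 fold change -1.13, adjusted p = 1.18e-06). In contrast, *Laptm5* (0.01), *Lcp1* (0.05) and *Cd52* (0.28; 0.45, adjusted p = 0.0269, without CD8 replicate 4) were shared. Of 16 MHC class I presentation genes 9 were shared, 5 were higher in TAMs and 3 in CD8 cells (median 0.14; 8 and 2 under TMM). *B2m*, the light chain of class I molecules, had 5143 to 7389 CPM in TAMs (median 6111) and 4430 to 5161 in CD8 cells (median 4769), and H2-K1 was shared (-0.57). H2-Q7 was higher in CD8 cells (log2 fold change -2.46, adjusted p = 6.61e-11), although class I genes are alike enough to exchange reads and H2-Q4 lost its call without CD8 replicate 5 (-1.93, adjusted p = 0.0613). Of 19 proteasome genes 12 were shared and 4 higher in TAMs (median 0.38; 7 and 9 under TMM), including *Psma1* (log2 fold change 1.06, adjusted p = 0.00205). Beside these lists, 12.7% of all tested genes were higher in TAMs, 10.2% higher in CD8 cells and 14.0% shared.

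Few OXPHOS and DNA replication genes were called, and how many count as shared depends on depth. Of 66 OXPHOS subunit genes 55 were shared, 1 (*Ndufc1*; 1.39, 2.05 without CD8 replicate 6) was higher in TAMs and 2 (*Ndufa4* and *Uqcrh*) in CD8 cells (median log2 fold change 0.04; 38 shared, 9 and 1 under TMM, 44 shared, 4 and 2 under DESeq2 size factors, and 21 shared of 62 tested in libraries thinned to equal depth), with sums of 12946 to 15167 CPM in TAMs (median 13899) and 10928 to 15410 in CD8 cells (median 13255). Glycolysis depended on scaling and depth: of 17 genes 4 were higher in TAMs (*Hk2*, *Gapdh*, *Pgam1* and *Pkm*) and 1, the glucose transporter *Slc2a3*, in CD8 cells (log2 fold change -3.53, adjusted p = 0.000153). These counts were 10 and 1 under TMM, 9 and 1 under DESeq2 size factors, 7 and 2 without CD8 replicate 5, and 2 and 0 of 16 tested in thinned libraries (median 0.43). Without CD8 replicate 1, *Hk2* (1.19, adjusted p = 0.0534), *Gapdh* (0.34, adjusted p = 0.121) and *Pkm* (0.40, adjusted p = 0.118) were not called, and *Slc2a3* reached -4.28 without TAM replicate 3. Lactate dehydrogenase, *Ldha*, was shared (-0.23). Of 21 DNA replication genes 1, *Dut*, was higher in CD8 cells (log2 fold change -1.25, adjusted p = 0.00104) and none in TAMs, 1 and 1 under TMM (median 0.12). Of 25 mitosis genes 4 were higher in TAMs (*Ccna2*, *Kif20a*, *Cdc20* and *Tubb5*), 8 under TMM and 6 under DESeq2 size factors (median 0.76), with *Kif20a* not called without CD8 replicate 5 (1.72, adjusted p = 0.0712) and 5.88 without CD8 replicate 6. Without that library the kinase *Aurkb* (5.70), *Cenpf* (2.01) and *Ube2c* (2.15) were called higher in TAMs as well. The 4 mitosis calls are near the 12.7% of all tested genes that were higher in TAMs. For the lists of this paragraph, the matching shares over all tested genes are 10.2% higher in CD8 cells and 14.0% shared. The replication clamp *Pcna* (-0.03), the proliferation marker *Mki67* (0.20) and *Top2a* (0.22) were shared. Summed mitosis RNA had the higher median in TAMs, with sums of 2369 to 3955 CPM in TAMs (median 3303) and 1136 to 3446 in CD8 cells (median 2029), which overlap.

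Ribosomal protein RNA weighed more in CD8 cells. Cytosolic ribosomal protein genes took 163152 to 198743 CPM of CD8 libraries (median 191695) and 103984 to 122393 of TAM libraries (median 106800), without overlap. Of 83 such genes 74 were higher in CD8 cells and none in TAMs (median log2 fold change -0.73), 43 and 1 under TMM (median -0.40) and 60 and 1 under DESeq2 size factors (median -0.53). *Rpsa*, the laminin-binding small-subunit protein, had 5016 to 5773 CPM in CD8 cells (median 5397) and 1712 to 2273 in TAMs (median 1990; log2 fold change -1.44, adjusted p = 2.26e-15), and *Rpl13a* had a log2 fold change of -1.58 (adjusted p = 2.57e-15). Mitochondrial ribosomal proteins did not follow: of 77 genes only *Mrpl46* was higher in CD8 cells and none in TAMs, with 0 and 3 under TMM or DESeq2 size factors (median -0.03), and *Mrpl46* lost its call without CD8 replicate 6 (-0.99, adjusted p = 0.414) or any of 7 other libraries. A share of a library falls when other genes take more of it, so more ribosomal protein RNA in T cells and more macrophage RNA in TAMs cannot be told apart on this scale.

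Cytoskeletal and immediate early genes divided member by member. Of 24 actin cytoskeleton genes 15 were shared, 7 were higher in TAMs and 4 in CD8 cells (median log2 fold change 0.15; 12 and 3 under TMM, 11 and 4 under DESeq2 size factors). Over all tested genes these shares were 14.0%, 12.7% and 10.2%. The severing protein *Gsn* had a log2 fold change of 1.99 (2.90 without CD8 replicate 5), whereas the thymosin *Tmsb10* was higher in CD8 cells (-1.46, adjusted p = 3.4e-13). Of 20 immediate early genes 7 were higher in TAMs and 6 in CD8 cells (median -0.04; 8 and 5 under TMM, 7 and 5 under DESeq2 size factors). *Fos* had 957 to 1500 CPM in TAMs (median 1338) and 104 to 599 in CD8 cells (median 314; log2 fold change 2.06, adjusted p = 1.31e-10), and the stress factor *Atf3* a log2 fold change of 2.90 (3.57 without CD8 replicate 5). The phosphatase *Dusp2*, induced by T cell receptor signals, had 247 to 988 CPM in CD8 cells (median 664) and 14.5 to 71.8 in TAMs (median 40.6; log2 fold change -3.90, adjusted p = 7.52e-16), and *Nr4a1*, another target of receptor signals, a log2 fold change of -1.18 (adjusted p = 0.000844).

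Nuclear long non-coding RNAs were mostly level between the cell types, and few GABA genes had a molecule. *Malat1* and *Neat1* (log2 fold change -0.07) were shared, and *Kcnq1ot1* was higher in CD8 cells (-1.12, adjusted p = 0.0297; median of 3 genes -0.17), a call lost under TMM and without CD8 replicate 5 (-0.77, adjusted p = 0.248). Of 31 genes for GABA receptors, synthesis and transport 26 had no molecule in TAMs and 26 none in CD8 cells, and 2 were tested (median -1.15). With 3 molecules over a group as the bound, a count of 0 leaves room for 2.04 CPM in TAMs and 11.4 CPM in CD8 cells. Such genes may thus be expressed below these levels. *Gabbr1*, a subunit of the GABA-B receptor, had 18.6 to 58 CPM in CD8 cells (median 35.2) and 0 to 13.7 in TAMs (median 1.98; log2 fold change -2.83, adjusted p = 0.00535, -3.41 without TAM replicate 1), without overlap but from few molecules. The aldehyde dehydrogenase *Aldh9a1* was not called (0.52, adjusted p = 0.484), and the GABA-making enzyme *Gad2* had 5 molecules in TAMs and 3 in CD8 cells.

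The most abundant transcripts overlapped widely between the cell types. *Rn45s* led in both (mean 94524 CPM in TAMs and 94621 in CD8 cells), followed by *Actb* (18698 and 13461). Of the top 20 genes 13 were the same in both cell types. In TAMs the list went on with *Tmsb4x* (7945), *B2m* (6242), the ferritin *Fth1* (6064), *Pabpc1* (4153), the protease *Ctss* (4069), the elongation factor *Eef1a1* (3909), *Cd74* (3868), *Tpt1* (3717), *Rn4.5s* (3653), *Malat1* (3464), *Ftl1* (3448) and *Ctsc* (3440), so that iron storage and antigen processing reached the very top. In CD8 cells it went on with *Rn4.5s* (11457), *Eef1a1* (7641), *Tmsb4x* (7421), *Tpt1* (6798), *Pabpc1* (5519), *Rpsa* (5400), *Rps26* (5133), *B2m* (4788), *Rplp1* (4549), *Rps27* (4526), *Rpl13a* (4494), *Snora81* (4484) and *Ifng* (4177). Interferon gamma was thus the only cytokine in either top 20. The non-coding *Rn4.5s* was higher in CD8 cells (log2 fold change -1.64, adjusted p = 7.11e-16). So was *Snora81* (715 to 934 CPM, median 767, against 2055 to 7687, median 4780; log2 fold change -2.46), a small nucleolar RNA inside a host gene whose reads cannot be assigned with certainty.

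The same rule was applied to 6 TAM and 6 CD8 libraries of muMt mice, which lack B cells, on a C57BL/6J background, with MC38 tumours of the same day, the same age range and no GABA pellet; these had not entered the comparison. Of the 173 CD8-defining genes 170 were tested there, 169 had the same direction and 121 met the whole rule again (189 genes did in all, 2.29% of 8265 tested), with a median absolute log2 fold change of 4.40 in WT and 4.11 in muMt. The 121 are 69.9% of the WT set and 64% of the muMt set. Of the 563 TAM-defining genes 546 were tested, 537 had the same direction, 402 were called and 193 met the whole rule (242 in all, 2.93%), with 3.53 in WT and 1.92 in muMt. These 193 are 34.3% of the WT set and 79.8% of the muMt set, so the order of the cell types turns with the set taken as whole. CD8 libraries of muMt mice held 1312 to 8832 CPM of macrophage markers (median 2081) against 186 to 2996 in WT (median 521), and those of TAM libraries were 16782 to 21584 (median 19462). The part of this macrophage marker RNA in the smaller differences was not tested.

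Promoters of the defining genes were searched for a few known binding words in the 250 bases before the start, on both strands. A promoter was found for 433 of the 563 TAM-defining and 900 of the 1148 shared genes, and for a similar part of the CD8-defining genes. The PU.1 word GAGGAAGT occurred in 4.85% of TAM-defining promoters, 3.25% of CD8-defining, 2.56% of shared and 2.82% of tested genes, and in 2.44% of all promoters. The RUNX word TGTGGTTT occurred in 4.07% of CD8-defining promoters, 2.31% of TAM-defining, 0.556% of shared and 1.08% of tested genes (1.57% of all); the first 3 shares are only 5, 10 and 5 promoters. The ETS word CCGGAAGT was rarer in TAM-defining (2.31%) and CD8-defining promoters (0%) than in shared (6.22%) and tested genes (6.84%; 2.93% of all). The AP-1 word TGANTCA occurred in 7.62, 6.5, 4.67 and 4.2% in the same order of TAM-defining, CD8-defining, shared and tested genes (6.87% of all), and TATAAA in 9.47, 9.76, 7 and 6.34% (13% of all). These shares describe sequence alone, and use of the sites was not tested.

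An example of each kind is the promoter of *Ctsc* with a PU.1 word and that of *Cytip*, a lymphocyte adaptor that defines CD8 cells (log2 fold change -2.04), with a RUNX word. Both are shown in the direction of transcription from GRCm38.p6, before the start that the RefSeq promoter table gives, which lies inside the full extent of each gene, at chr7:88277835-88278084 (plus strand) and chr2:58160123-58160372 (minus strand). Capitals mark the word, here on the opposite strand in both.
Ctsc: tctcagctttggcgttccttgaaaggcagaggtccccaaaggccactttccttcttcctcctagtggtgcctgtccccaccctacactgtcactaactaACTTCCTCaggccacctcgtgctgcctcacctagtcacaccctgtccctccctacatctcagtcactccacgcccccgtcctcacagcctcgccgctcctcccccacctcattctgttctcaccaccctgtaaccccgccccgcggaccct
Cytip: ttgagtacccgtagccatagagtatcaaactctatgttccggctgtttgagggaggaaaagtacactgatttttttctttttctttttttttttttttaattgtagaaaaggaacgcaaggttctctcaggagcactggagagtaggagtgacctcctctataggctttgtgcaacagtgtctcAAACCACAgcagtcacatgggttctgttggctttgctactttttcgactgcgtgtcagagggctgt

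TAMs of these tumours are thus defined by complement, Fc receptors, class II presentation, lysosome, lipid-handling and iron storage genes, and CD8 cells by the T cell receptor, granzymes, interferon gamma, CCL3 to CCL5 and costimulatory receptors. Few OXPHOS subunit genes were called in either direction. The differences are between sorted populations of a single tumour model at a single time, and the cause of any of them was not tested.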

How the data were processed

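The authors deposited the number of distinct molecules per gene and library, counted after mapping with STAR to mm10; 0 columns are without a sample. The file holds 24781 genes, 13693 with a molecule in the 12 libraries, 26 date-like names (0.112% of molecules, kept) and 0 ERCC spike-ins. Counts were scaled to library totals. Genes with a mean DESeq2-normalised count above 1 (8174) were tested with edgeR 4.0.16 (quasi-likelihood, group only, Benjamini-Hochberg at 0.05). Defining genes also need a log2 fold change of at least 2 and no overlap; shared genes need a 95% interval within -1 to 1. Library measures used exact permutation tests (924 arrangements). Genes without molecules in a group are bounded by 3 molecules over that group, and those with 1 to 3 carry exact counting intervals. Both pool the molecules of a group and leave out the spread between libraries. Gene lists (51) and pairs (34) came from general knowledge; members and lists were chosen with earlier results of these data known. Motifs use GRCm38.p6. Leaving out CD8 replicate 5 with TAM replicate 6, totals without Rn45s and Rn4.5s, and lists without CD8 replicate 5 were added after the data were seen. Python 3.11.15 ran scipy 1.17.1, matplotlib 3.10.9, pandas 2.3.3 and numpy 2.4.6; R 4.3.3 ran limma 3.58.1 and DESeq2 1.42.0. Immunoglobulin genes were not analysed here.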

Additional observations from a re-analysis of the deposited data

Results flagged for a closer look

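Within-group checks on 40 sets of 6 values named 9 values that stand apart. The cutoff names about 1 in 20 sets when values are normally distributed and sets are independent. Some sets here are low counts with many values of 0, and some share genes and a library. That rate is therefore no measure of chance for these 9 values. In TAMs these are the 3.96 CPM of Cd8a in replicate 6 (0 in the others), which is 1 molecule; 6470 CPM of fibroblast markers in replicate 6 (158 to 1362); 194 CPM of neutrophil markers in replicate 5 (27.3 to 83.1); and 251 CPM of endothelial markers in replicate 1 (11.9 to 16.4). In CD8 cells they are 155 CPM of Csf1r (0 to 13), 58 CPM of C1qa (0 to 13) and 2996 CPM of summed macrophage markers (186 to 923) in replicate 5, 247 CPM of neutrophil markers in replicate 6 (0 to 19.3), and 742 CPM of erythroid markers in replicate 2 (0). All 12 libraries were kept. Without CD8 replicate 5 and TAM replicate 6 together, 1003 genes were higher in TAMs and 777 in CD8 cells, 632 defined TAMs (526 of the 563), 194 defined CD8 cells (170 of the 173) and 833 were shared. RNA of other cells and expression by the sorted cells cannot be told apart.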

How the results depend on the processing

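Only 6 libraries per group and 1 tumour model are covered, and CD8 libraries are shallow. With filterByExpr (2526 genes tested) 624 genes were higher in TAMs and 460 in CD8 cells, with 277 TAM-defining and 100 CD8-defining; with a mean above 5 (3224 tested) 668 were higher in TAMs and 294 TAM-defining. Limma voom gave 865 genes higher in TAMs, 1220 in CD8 cells and 357 TAM-defining, thinned libraries (3645 tested) 485 higher in TAMs, 322 higher in CD8 cells, 173 TAM-defining, 105 CD8-defining and 247 shared, and a log2 threshold of 1 gave 270 CD8-defining genes. TMM kept all 563 TAM-defining and 151 of 173 CD8-defining genes. The share of the top 20 genes differed by -2.21 points (exact permutation, adjusted p = 0.0844). The difference in gene number at equal depth was not called in 9 leave-one-out runs (exact permutation, adjusted p up to 0.102). It ranged from 180 to 287 genes over all 12 runs. In some of the 9 it was larger than the main 231 genes, such as 247 without TAM replicate 2. Leaving out single libraries gave 940 to 1039 genes higher in TAMs, 719 to 826 in CD8 cells, 514 to 658 TAM-defining, 168 to 198 CD8-defining and 807 to 1078 shared. The 6 markers held in all 25 settings. TAM and CD8 libraries share only a number; with it as a block 1017 and 758 genes were called, and same-number libraries correlated at 0.00106 to 0.0536.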
